A study of Homo sapiens with 8 samples.

Results

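Intermediate filaments are the rope-like part of the cytoskeleton, and the genes described here are 10 members of that family, chosen by symbol from the 60606 rows of a gene count table. They are the neurofilament genes NEFL, NEFM and NEFH, the internexin gene INA, the nestin gene NES, the vimentin gene VIM and the keratin genes KRT8, KRT18, KRT10 and KRT19. All 10 symbols were found. The genes were picked with earlier results of these data known, so their levels are given as a description, and no count over them is support for a pattern of the family.

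The cells were HEK293, a human line of embryonic kidney origin bought from ATCC, and their total RNA was sequenced. The tDR group was transfected with a synthetic copy of the tRNA-Asp-GTC-3'tDR, a small RNA derived from a tRNA, and the control group with a scrambled mimic. Both groups received 50 nM of mimic with a lipid reagent and were collected after 48 hours, so that transfection itself is shared by the 2 groups. Each group held 4 libraries of this 1 cell line, with total counts of 5848305 to 9237986 in tDR libraries and 6536554 to 10557740 in control libraries. Nothing in the labels tells whether each library had its own culture. The p-values therefore set the difference between the groups only against the spread among these libraries, and that spread may be technical. Levels are CPM, counts scaled to a common library size with TMM factors, and fold changes are log2 of tDR over control from edgeR's quasi-likelihood test, called at a false discovery rate under 0.05 (Benjamini-Hochberg) over all 17184 genes tested.

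Intermediate filament proteins share a coiled-coil rod and assemble into filaments without a bound nucleotide. Neurofilament subunits and internexin copolymerise in the axons of neurons, where they set axon calibre. Vimentin fills mesenchymal and many cultured cells, nestin joins vimentin in dividing progenitor cells, and keratins form obligate pairs of a type I and a type II chain, of which KRT18 with KRT8 is the pair of simple epithelia such as kidney tubule. Lines of the HEK293 type are known to express neurofilament genes alongside vimentin and the KRT8 and KRT18 pair.

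Over the 10 genes, 9 passed the filter on low counts and 1, KRT19, did not. The neurofilament genes NEFL and NEFM fell in tDR libraries, NES and KRT8 rose, and the other 5 tested genes did not pass the test. Of all tested genes 11.4% were called lower and 12.8% higher, 24.3% in either direction, which is the background for these counts of 2 and 2. The calls of all genes moved with their level. Among 4272 genes with a mean log2 CPM over 6, where NEFM, NEFL and VIM lie, 31.6% were lower and 4.75% higher. Among 8013 genes under 4, where NES, KRT8 and NEFH lie, 1.07% were lower and 18.5% higher. The 4 called genes each moved in the direction more often called at their level.

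**Figure D1:**
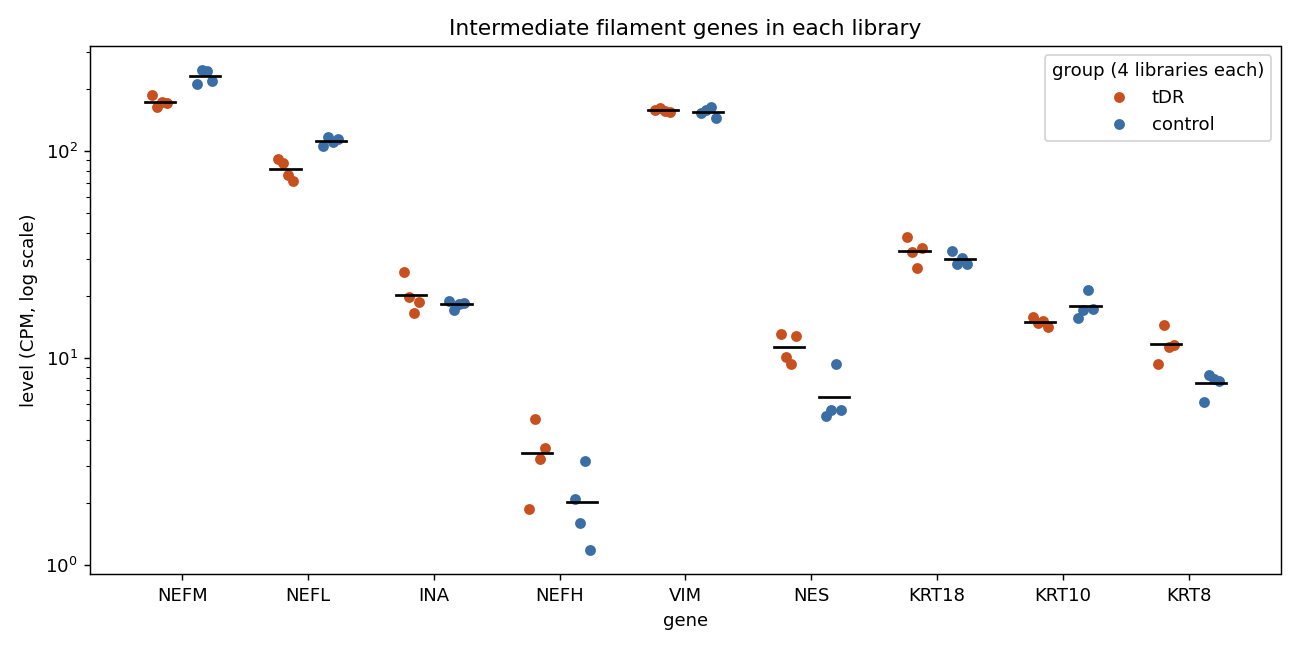
Level of each tested gene in each library, in CPM on a log axis, with tDR libraries left and control libraries right and the black line at the group mean. The 4 tDR libraries lie below the 4 control libraries for NEFM and NEFL and above them for KRT8, and the groups overlap for the other genes.

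The most abundant of the genes was NEFM (chromosome 8, 24913012 to 24919098, plus strand), which encodes the medium neurofilament chain. It had 186, 163, 172 and 171 CPM in tDR replicates 1 to 4, against 212, 246, 243 and 218 CPM in control replicates 1 to 4. The groups did not overlap, and the lowest control library stood above the highest tDR library. The means were 173 ± 9.51 CPM in tDR libraries and 230 ± 17.4 CPM in control libraries (SD, n = 4 each), and the log2 fold change was -0.41 ± 0.054 (SE; adjusted p = 6.11e-08 by edgeR), a level that fell by 24.5%. Between 1100 and 2219 reads lay behind each of these values. In these bulk libraries fewer cells that express a gene and less of its RNA per cell cannot be told apart.

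NEFL (chromosome 8, 24950955 to 24957110, minus strand) encodes the light chain, which neurofilaments need for their assembly, and lies 31857 bp from NEFM. It had 91.8, 87.4, 76.9 and 71.5 CPM in tDR replicates 1 to 4, against 105, 116, 110 and 115 CPM in control replicates 1 to 4. Every tDR library was below every control library. The log2 fold change was -0.46 ± 0.066 (SE; adjusted p = 4.56e-07 by edgeR), and the level fell by 27.1%. Every tDR library lay below every control library in 10.8% of all tested genes. Under the 18 alternative settings NEFL ranged between -0.52 and -0.37 and NEFM between -0.45 and -0.32 on the log2 scale, and both were called lower under each.

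The ratio of NEFL to NEFM counts was close in the 2 groups, with 0.473 ± 0.0516 in tDR libraries and 0.488 ± 0.0308 in control libraries (SD, n = 4 each). The groups overlapped in this ratio, which ranged between 0.418 and 0.535 in tDR libraries and between 0.455 and 0.526 in control libraries. The 2 genes lie on opposite strands, and the other tested genes within 200 kb of either were 2. ENSG00000272163, which overlaps NEFM on the other strand, had 2.07 CPM in tDR libraries and 2.41 CPM in control libraries and was not called (adjusted p = 0.744 by edgeR). ADAM7-AS1, which lies 939 bp from NEFM, rose by 0.70 on the log2 scale (adjusted p = 0.00747 by edgeR), with 9.31 CPM in tDR libraries and 5.74 CPM in control libraries. The background expected from its annotated span was as large as its count (100%), and whether reads were counted by strand is not stated.

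INA (chromosome 10, 103277163 to 103290351, plus strand) encodes alpha-internexin, a further subunit of axonal filaments. It had 25.9, 19.7, 16.5 and 18.7 CPM in tDR replicates 1 to 4, against 18.8, 17.1, 18.3 and 18.5 CPM in control replicates 1 to 4. The tDR libraries spread to both sides of the control libraries, with tDR replicate 1 at the top. The log2 fold change was 0.14 ± 0.13 (SE; adjusted p = 0.468 by edgeR), and without tDR replicate 1 it was -0.0004. Set against NEFM, the ratio of INA to NEFM counts was 0.116 ± 0.0185 in tDR libraries and 0.0796 ± 0.00883 in control libraries (SD, n = 4 each), and the groups did not overlap. NEFM was called lower and INA was not called, so the ratio is no separate result on INA.

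NEFH (chromosome 22, 29480230 to 29491390, plus strand) encodes the heavy chain, which enters neurofilaments late in neuronal maturation. It was rare, with 11, 37, 25 and 35 counts in tDR replicates 1 to 4, against 19, 13, 20 and 12 counts in control replicates 1 to 4. As CPM these were 1.86, 5.07, 3.24 and 3.67 in the tDR libraries and 2.08, 1.59, 3.18 and 1.18 in the control libraries. The groups overlapped, since tDR replicate 1 was low and control replicate 3 was high. The log2 fold change was 0.85 ± 0.34 (SE) and did not pass (adjusted p = 0.060 by edgeR). It passed with scaling to library size alone (0.93, adjusted p = 0.0377), without tDR replicate 1 (1.02, adjusted p = 0.0263) and without control replicate 3 (1.10, adjusted p = 0.0277), and over the 18 alternatives the adjusted p ranged between 0.0263 and 0.271.

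VIM (chromosome 10, 17228259 to 17237593, plus strand) encodes vimentin. It had 158, 161, 157 and 154 CPM in tDR replicates 1 to 4, against 153, 158, 164 and 144 CPM in control replicates 1 to 4. The tDR libraries lay within the range of the control libraries, and the log2 fold change was 0.03 ± 0.054 (SE; adjusted p = 0.764 by edgeR). Its sign turned with no filter on low counts (-0.0074), with DESeq2 (-0.0058) and without control replicate 4 (-0.02), so no direction is given. The antisense gene VIM-AS1, which overlaps VIM, had means of 5.49 CPM in tDR libraries and 5.98 CPM in control libraries and was not called (adjusted p = 0.70 by edgeR). The ratio of VIM to NEFM counts was 0.91 ± 0.0563 in tDR libraries and 0.675 ± 0.0333 in control libraries (SD, n = 4 each), with no overlap between the groups. NEFM was called lower and VIM was not called, so this ratio does not add to the tests of the single genes.

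NES (chromosome 1, 156668763 to 156677397, minus strand) encodes nestin, a large chain that copolymerises with vimentin in progenitor cells. It had 13.04, 10.1, 9.33 and 12.8 CPM in tDR replicates 1 to 4, against 5.25, 5.63, 9.38 and 5.60 CPM in control replicates 1 to 4. Control replicate 3 stood apart from the other control libraries and just above the lowest tDR library, which is the only overlap of the groups. The means were 11.3 ± 1.87 CPM in tDR libraries and 6.46 ± 1.95 CPM in control libraries (SD, n = 4 each). NES rose, with a log2 fold change of 0.84 ± 0.19 (SE; adjusted p = 0.000763 by edgeR), and it was called higher under each of the 18 alternatives, with a lowest log2 fold change of 0.75 and a highest, without control replicate 3, of 1.02. Counts per library were between 72 and 122 in tDR libraries and between 46 and 59 in control libraries.

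Low-level signal of the libraries was higher in tDR libraries, as NES and KRT8 were. Counts over 381 olfactory receptor genes, which these cells are not known to use, came to 0.0250 ± 0.00119 CPM per kb of gene span in tDR libraries and 0.0152 ± 0.00196 in control libraries (SD, n = 4 each), here scaled to total counts without TMM factors. Scaled to each gene's span, this background would make up 1.99% of NES counts, 11% of KRT8 counts, 8.28% of NEFH counts and 24.9% of KRT19 counts, and 0.126% of NEFL counts and 0.06% of NEFM counts. Of all tested genes, 2147 had an estimated background over 50% of their counts. They held 870 of the 2206 higher calls and 1 of the 1962 lower calls, and NES and KRT8 are not among them. The shares of all genes called, given above for comparison, include these genes. With the background subtracted by span, TMM factors were computed anew. In that fit NES was at 0.88 and KRT8 at 0.69 on the log2 scale and both were still called (adjusted p = 0.00411 and 0.0141 by edgeR). Each of the 9 tested genes lay higher in this fit than in the main one, with VIM at 0.08, NEFL at -0.40 and NEFM at -0.35. The higher values are therefore not particular to NES and KRT8, and the part of the new scaling in them was not tested.

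The windows of 250 bases before to 50 after an annotated start (RefSeq, GRCh38.p14) were available for 5 of the 10 genes. The windows of NES and KRT8, the called genes among them, are shown to let their composition be compared, 5′ to 3′ on the gene's strand, with matches to the searched motifs in capitals.
NES, chr1:156677358-156677657, minus strand: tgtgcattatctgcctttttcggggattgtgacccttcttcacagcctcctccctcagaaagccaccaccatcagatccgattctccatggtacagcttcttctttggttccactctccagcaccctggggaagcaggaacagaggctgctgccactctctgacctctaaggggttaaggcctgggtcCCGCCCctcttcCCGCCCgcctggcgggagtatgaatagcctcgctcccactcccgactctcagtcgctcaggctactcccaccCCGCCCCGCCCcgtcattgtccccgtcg
KRT8, chr12:52926420-52926719, minus strand: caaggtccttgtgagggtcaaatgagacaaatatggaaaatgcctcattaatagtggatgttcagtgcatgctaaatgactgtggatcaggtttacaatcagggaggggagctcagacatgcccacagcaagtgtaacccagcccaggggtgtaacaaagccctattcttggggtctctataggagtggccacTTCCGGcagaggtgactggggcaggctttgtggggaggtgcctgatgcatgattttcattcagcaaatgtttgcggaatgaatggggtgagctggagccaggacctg
The capitals in NES mark the GC box GGGCGG, found in 4 copies, all in reverse orientation, of which the last 2 overlap by 1 base. The capitals in KRT8 mark 1 reverse copy of the ETS core CCGGAA. All motifs were searched on both strands. The TATA box TATAAA was found in neither window. The same held for the AP-1 motif TGANTCA. It also held for the EGR1 motif GCGGGGGCG. Of 35116 such windows of 300 bases, 45% held the GC box, 17.2% the ETS core, 11.5% TATAAA, 7.71% TGANTCA and 5.07% GCGGGGGCG. INA held 4 GC boxes and VIM 1, and neither gene was called, while the KRT10 window held 1 TATAAA. The KRT8 window belongs to 1 of several annotated starts of that gene, and which start these cells use was not examined.

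KRT8 and KRT18 lie next to each other on chromosome 12 and encode the partners of 1 filament. KRT8 (52897187 to 52949954, minus strand), the type II chain, had 9.31, 14.4, 11.3 and 11.5 CPM in tDR replicates 1 to 4, against 6.13, 8.32, 7.95 and 7.76 CPM in control replicates 1 to 4. Every tDR library was above every control library, as in 11.8% of all tested genes. KRT8 rose, with means of 11.6 ± 2.09 CPM in tDR libraries and 7.54 ± 0.967 CPM in control libraries (SD, n = 4 each) and a log2 fold change of 0.63 ± 0.18 (SE; adjusted p = 0.00558 by edgeR). This call rested in part on tDR replicate 2, without which the log2 fold change was 0.51 (adjusted p = 0.0516 by edgeR).

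KRT18 (52948871 to 52952901, plus strand), the type I chain, had 38.3, 32.5, 27.2 and 34.1 CPM in tDR replicates 1 to 4, against 32.7, 28.4, 30.4 and 28.5 CPM in control replicates 1 to 4. The groups overlapped, and the log2 fold change was 0.13 ± 0.10 (SE; adjusted p = 0.356 by edgeR). The ratio of KRT8 to KRT18 counts was 0.36 ± 0.0893 in tDR libraries and 0.254 ± 0.0461 in control libraries (SD, n = 4 each), and it overlapped between the groups because tDR replicate 1 stood at 0.243. The annotated span of KRT8 runs over the start of KRT18 on the other strand, so without the strand setting reads in that overlap cannot be told apart.

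KRT8 and KRT18 also have many processed pseudogenes, copies of their mRNA set elsewhere in the genome. Over the 8 libraries together those of KRT8 held more reads than the gene, though slightly fewer in tDR libraries. The 51 rows of KRT8 pseudogenes held 344 counts in tDR libraries and 373 in control libraries, against 357 and 253 for KRT8 itself, 118% of its total. Most were in KRT8P12 (chromosome 3, 160565447 to 160569248, plus strand), whose start overlaps that of KPNA4 on the other strand. KRT8P12 had 7.27 ± 0.988 CPM in tDR libraries and 7.79 ± 0.656 CPM in control libraries (SD, n = 4 each) and was not called (adjusted p = 0.787 by edgeR). Over 1385 aligned bases its transcript was identical to the KRT8 coding sequence at 90.7%, with a longest identical run of 53 bases. Whether reads that fit several places were counted is not stated in the labels. With the counts of all KRT8 pseudogene rows added to KRT8, its log2 fold change was 0.30 and did not pass (adjusted p = 0.0614 by edgeR), a check added after the data were seen. The sum of KRT8 and its copies was 22.8 ± 3.20 CPM in tDR libraries and 18.7 ± 1.57 CPM in control libraries (SD, n = 4 each). The 67 rows of KRT18 pseudogenes held 23.6% of the count of KRT18, and adding them left KRT18 not called at 0.18. Single pseudogenes of NEFL and NEFM, by contrast, had no count in any library. The single NEFH pseudogene had 25 counts in tDR libraries and 13 in control libraries, 22.1% of the count of NEFH. The 5 rows of KRT19 pseudogenes held 87.5% of the count of KRT19.

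KRT10 (chromosome 17, 40818117 to 40822595, minus strand), a type I keratin known from the upper epidermis, had 15.7, 14.8, 15.2 and 14.2 CPM in tDR replicates 1 to 4, against 15.7, 17.0, 21.3 and 17.3 CPM in control replicates 1 to 4. Only tDR replicate 1 and control replicate 1 kept the groups from being apart, and the log2 fold change was -0.24 ± 0.13 (SE; adjusted p = 0.179 by edgeR). The antisense gene KRT10-AS1, which overlaps it, with 5.45 CPM in tDR libraries and 7.43 CPM in control libraries, was not called either (adjusted p = 0.10 by edgeR).

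KRT19 (chromosome 17, 41523617 to 41528308, minus strand), a type I keratin of simple epithelia without a tail domain, had 7, 4, 3 and 0 counts in tDR replicates 1 to 4, against 0, 5, 0 and 5 counts in control replicates 1 to 4. At 0 counts, up to 0.315 CPM is allowed in tDR replicate 4 and up to 0.328 and 0.477 CPM in control replicates 1 and 3 (3 counts, counting error only). These counts do not show KRT19 to be expressed in these cells, and no difference was detectable at this depth.

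**Figure D2:**
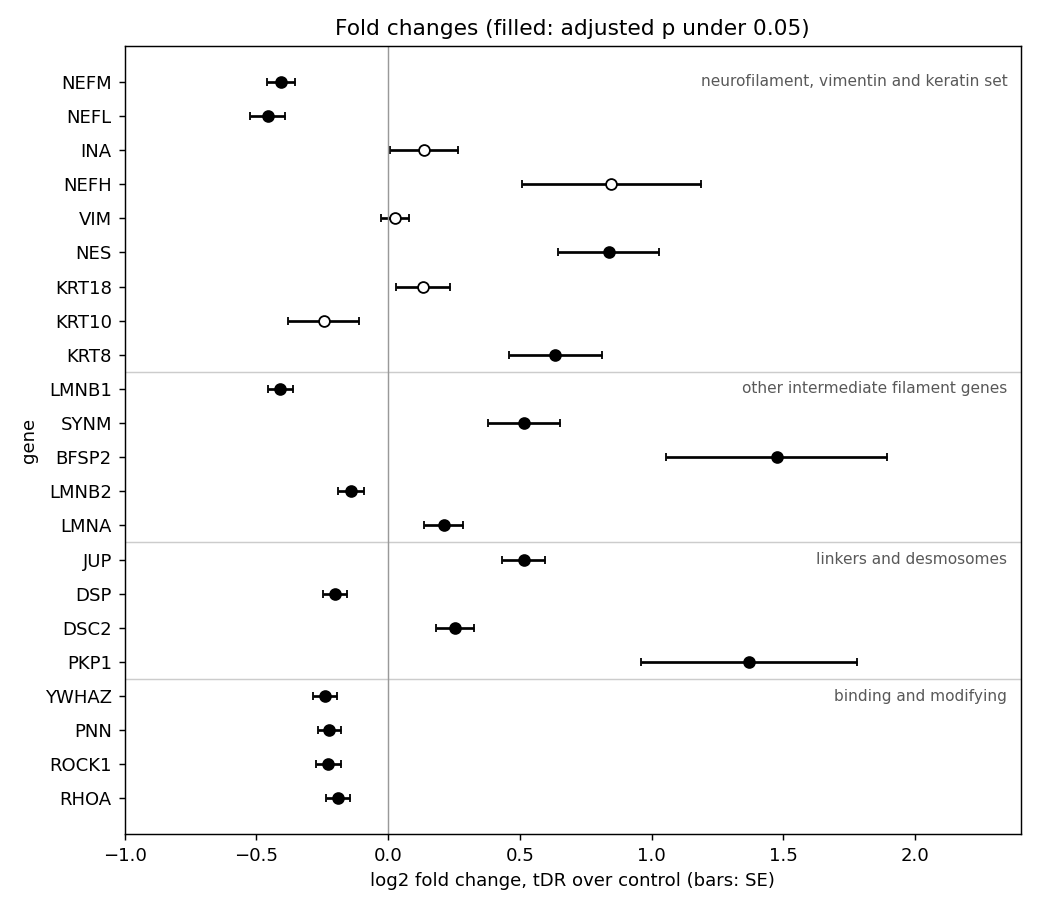
Log2 fold change of tDR over control with its SE, for the 9 tested genes and, below them, called genes of the 3 wider lists. Filled points passed an adjusted p under 0.05, with NEFM at -0.41, NEFL at -0.46, NES at 0.84 and KRT8 at 0.63.

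Compared per length, as CPM per kb of merged annotated exons, the 10 genes spanned a wide range of levels. NEFM led with 39.6 ± 2.17 in tDR libraries and 52.4 ± 3.97 in control libraries (SD, n = 4 each), followed by VIM with 30.5 ± 0.528 in tDR libraries and 30.0 ± 1.63 in control libraries and NEFL with 18.9 ± 2.15 in tDR libraries and 25.8 ± 1.13 in control libraries. KRT18 followed with 10.3 ± 1.42 in tDR libraries and 9.32 ± 0.635 in control libraries, then KRT10 with 6.98 ± 0.311 and INA with 6.25 ± 1.25 in tDR libraries, against 8.31 ± 1.13 and 5.62 ± 0.228 in control libraries. KRT18 and KRT10 in control libraries, and KRT10 and INA in tDR libraries, did not differ beyond their spread. NES with 2.04 ± 0.336 and KRT8 with 1.69 ± 0.303 in tDR libraries, against 1.16 ± 0.351 and 1.10 ± 0.141 in control libraries, were likewise not apart within either group. NEFH with 0.915 ± 0.349 in tDR libraries and 0.53 ± 0.228 in control libraries and KRT19 with 0.227 ± 0.211 in tDR libraries and 0.118 ± 0.138 in control libraries closed the order. The merged exons of KRT8 include long alternative starts, which lowers its level per kb. By this measure NEFM stood above 95.6% of tested genes, VIM above 92.1%, NEFL above 87.7%, KRT8 above 22.2% and NEFH above 11.7%.

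The make-up of the set differed between the groups. NEFL and NEFM together held 50.3% ± 1.07 of the reads of the 10 genes in tDR libraries and 59.0% ± 1.36 in control libraries (SD, n = 4 each), and VIM held 31.0% ± 1.299 in tDR libraries and 26.8% ± 0.774 in control libraries. Both shares were apart between the groups in all libraries. Summed over the 10 genes the level was 508 ± 23.9 CPM in tDR libraries and 578 ± 29.3 CPM in control libraries, again with no overlap. The 4 keratins together had 60.1 ± 4.49 CPM in tDR libraries and 55.6 ± 2.66 CPM in control libraries, and these overlapped. A share within a set falls when other members rise, so the shares do not add to the tests of the single genes.

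**Figure D3:**
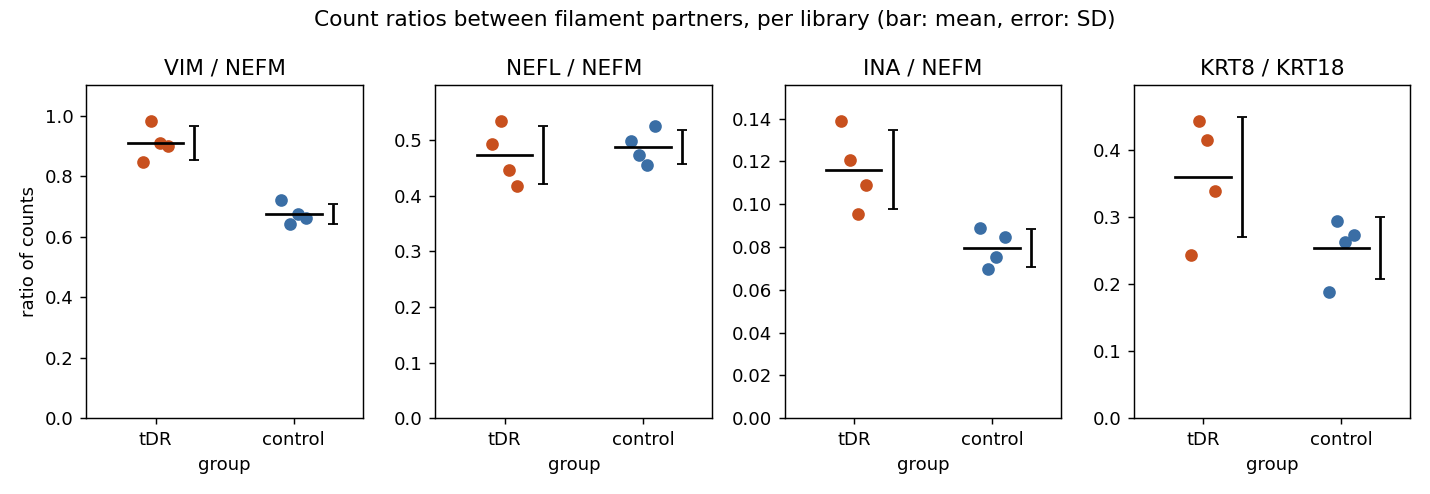
Ratio of counts between pairs of genes in each library, tDR left and control right, with the mean and SD of each group. VIM to NEFM is 0.91 in tDR libraries and 0.675 in control libraries and INA to NEFM 0.116 in tDR libraries and 0.0796 in control libraries, both without overlap, while NEFL to NEFM and KRT8 to KRT18 overlap. NEFM was called lower, and VIM and INA were not called.

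Other intermediate filament genes were mostly too low to test. Of 63 further genes of the family, 7 had no count in any library and 10 were tested, of which 3 rose, 2 fell and 5 did not pass, with a median log2 fold change of 0.15 against 0.02 for all tested genes, of which 12.8% rose and 11.4% fell. The genes that fell encode B-type lamins, which line the inner nuclear membrane. Both lie over a mean log2 CPM of 6, where 31.6% of tested genes fell and 4.75% rose. LMNB1 fell to 262 ± 13.9 CPM in tDR libraries, against 348 ± 8.42 CPM in control libraries (SD, n = 4 each), a log2 fold change of -0.41 ± 0.048 (SE; adjusted p = 2.05e-09 by edgeR). LMNB2 was at -0.14 (adjusted p = 0.0276 by edgeR), and lost its call without tDR replicate 3 or 4 (-0.13 and -0.11) or control replicate 3 or 4 (-0.14 and -0.14), with library size alone (-0.06) and with background subtracted by span (-0.09). LMNA, which encodes the A-type lamins, rose to 67.4 ± 5.43 CPM in tDR libraries, against 58.2 ± 3.15 CPM in control libraries (log2 fold change 0.21; adjusted p = 0.0292 by edgeR). Its call ended under 7 of 18 alternatives, among them the fits without tDR replicate 2 (0.15) or 3 (0.21) and without control replicate 1 (0.17) or 3 (0.19). SYNM, the gene of synemin, which joins vimentin-type filaments, rose by 0.52 (adjusted p = 0.00379 by edgeR). BFSP2, a filament gene of the eye lens, rose by 1.48 (adjusted p = 0.00686 by edgeR), but background by span made up an estimated 93.2% of its counts, and with it subtracted the value was 5.33 and did not pass (adjusted p = 0.0683). With background scaled to exon length BFSP2 was at 1.61 and still called (adjusted p = 0.00918 by edgeR). Its means were 2.43 CPM in tDR libraries and 0.877 CPM in control libraries. At such levels a gene can pass the filter on low counts through its tDR libraries alone, which makes a higher call the likelier outcome. No keratin outside the set of 10 was called, and KRT86 was the only one tested. KRT86 had means of 1.28 CPM in tDR libraries and 1.15 CPM in control libraries, with an estimated 97.9% background by span.

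Genes of the proteins that tie filaments to junctions, membranes and other filaments mostly did not pass. Of 25 such genes 19 were tested, of which 3 rose, 1 fell and 15 did not pass, against 12.8% higher and 11.4% lower over all tested genes, with a median of 0.03. JUP, which encodes plakoglobin of the desmosome, the junction that anchors keratins, rose to 63.4 ± 2.62 CPM in tDR libraries, against 44.4 ± 4.45 CPM in control libraries (SD, n = 4 each), a log2 fold change of 0.51 ± 0.080 (SE; adjusted p = 1.89e-06 by edgeR). DSP, which encodes desmoplakin, the desmosome's link to keratin filaments, fell to 509 ± 19.9 CPM in tDR libraries, against 585 ± 19.98 CPM in control libraries, a log2 fold change of -0.20 (adjusted p = 0.000537 by edgeR). It too lies over a mean log2 CPM of 6, where 31.6% of tested genes fell and 4.75% rose. The desmosomal cadherin gene DSC2 rose by 0.25 (adjusted p = 0.00742 by edgeR), a call that ended without tDR replicate 1 (0.20). PKP1, a plakophilin gene, rose by 1.37 (adjusted p = 0.0103 by edgeR), but with an estimated 56.9% background by span, and its call ended without tDR replicate 2 (1.16) and with background by span subtracted (2.46, adjusted p = 0.121). With background scaled to exon length PKP1 was at 1.60 and still called (adjusted p = 0.0127 by edgeR). PKP1 had means of 2.53 CPM in tDR libraries and 0.969 CPM in control libraries, so it too can have passed the filter through its tDR libraries alone. The plectin gene PLEC, the general filament linker, stood at 388 ± 6.83 CPM in tDR libraries and 388 ± 32.9 CPM in control libraries and did not pass, but with the correction for length and GC content it fell by 0.23 (adjusted p = 2.21e-05 by edgeR).

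Of 25 genes whose proteins bind or modify filaments 21 were tested, of which 1 rose, 8 fell and 12 did not pass, with a median of -0.13. Over all tested genes 12.8% rose and 11.4% fell, and 31.6% fell among those with a mean log2 CPM over 6, where 7 of the 8 lie. This count depended on the settings: 3 fell with library size alone, 4 with background subtracted by span, 4 without tDR replicate 3 or without tDR replicate 4 and 10 with the correction for length and GC content. Over all 17184 genes 907 fell with library size alone, 1093 with background subtracted by span and 2206 with that correction. Without tDR replicate 3, 1606 of 17868 genes fell, and without tDR replicate 4, 1511 of 17240. The kinase gene ROCK1, whose product phosphorylates vimentin, fell by 0.23 on the log2 scale (adjusted p = 0.000257 by edgeR), and RHOA, which encodes the GTPase that activates it, fell by 0.19 (adjusted p = 0.00178 by edgeR). The call of RHOA ended with library size alone (-0.11, adjusted p = 0.0822). YWHAZ, a 14-3-3 gene, fell by 0.24 and PNN, which encodes the keratin-binding protein pinin, by 0.22 (adjusted p = 6.02e-05 and 0.000103 by edgeR). FAM83H, whose product binds keratins and recruits casein kinase 1, rose by 0.46 (adjusted p = 0.00247 by edgeR).

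**Figure D4:**
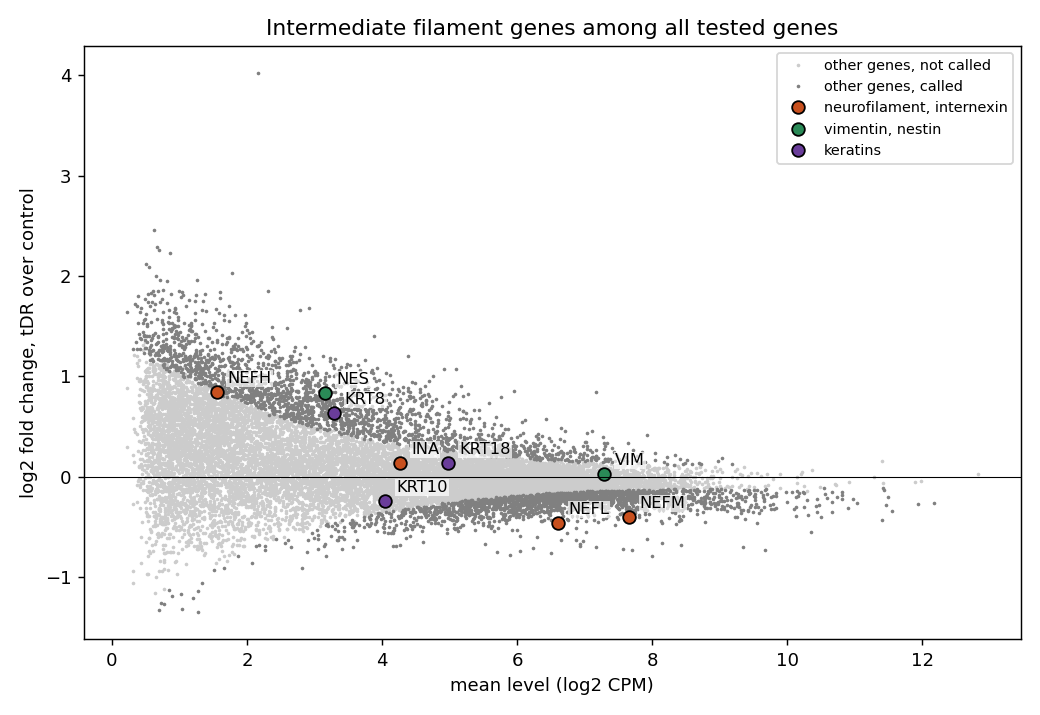
Log2 fold change of tDR over control against mean level in log2 CPM for all 17184 tested genes, with the intermediate filament genes coloured by class. NEFM and NEFL lie in the lower part among abundant genes, where 31.6% of genes were called lower, and NES, KRT8 and NEFH lie in the upper part among rare genes, where 18.5% were called higher.

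Markers of other cell types were compared beside these genes. Their counts are set against 12.8% higher and 11.4% lower over all tested genes, and 18.5% higher among those with a mean log2 CPM under 4. Of 15 neuronal markers 10 were tested, of which 2 rose by edgeR, and their summed level was 342 to 353 CPM in tDR libraries and 326 to 333 CPM in control libraries, with SNAP25 at 0 counts in all libraries. Among them RBFOX3, with 33.5 CPM in tDR libraries and 21.9 CPM in control libraries, had an estimated 31% background by span. Background, which was higher in tDR libraries, was not subtracted from the sums of any marker list. Of 10 epithelial markers 6 were tested, of which 2 rose, with sums of 43.8 to 58.3 CPM in tDR libraries and 35.1 to 43.1 CPM in control libraries. Of 14 mesenchymal markers 10 were tested, of which 2 rose and 3 fell, with sums of 714 to 737 CPM in tDR libraries and 740 to 796 CPM in control libraries and THY1 at 0 counts. Of 7 blood and endothelial markers 4 were tested, of which 2 rose, with sums of 16.4 to 18.1 CPM in tDR libraries and 7.66 to 11.99 CPM in control libraries. Of 7 genes of embryonic kidney 5 were tested, of which 1 rose, and they summed to 111 to 123 CPM in tDR libraries and 110 to 115 CPM in control libraries, led by GATA3, with CITED1 at 0 counts. The part of these markers in the values of the filament genes was not tested.

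The genes whose pattern over the 8 libraries was most like that of NEFM, by the root mean square difference of centred log2 CPM among 13132 genes with a mean log2 CPM above 2, were ANP32B (0.0335), SFPQ (0.0351) and NOL11 (0.0512). For NEFL they were PFN2 (0.0603), TIMM13 (0.0607) and IGFBP5 (0.0666). Their log2 fold changes were between -0.48 (IGFBP5) and -0.37 (NOL11). The genes were chosen for likeness over the same libraries, so fold changes near those of NEFM and NEFL follow from the choice.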

How the data were processed

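Long RNA of 8 HEK293 libraries, 4 tDR and 4 control, was measured as read counts per gene. The authors deposited 1 table of raw counts, with no normalization. Per the labels' protocols, libraries were made from TRIzol-extracted RNA with a stranded low-input kit (version 2). The submitters' processing notes list DESeq2 1.30.1, featureCounts 2.0.2, STAR 2.7.8a, FastQC 0.11.9 and cutadapt 2.10 beside the builds hg38 and GRCh38.p13. Strand setting, annotation release and treatment of multiply fitting reads were not given in the sources used here.

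Each column matched 1 library by name. All pairs of libraries differed by more than counting noise (chi-square per degree of freedom 2.15 to 8.16). Counts were tested with edgeR 4.0.16 in R 4.3.3 (TMM, its filter on low counts, group as the only term, common dispersion 0.00446) over 17184 genes; the steps were tested on simulated counts. Positions and lengths came from GENCODE release 29 on GRCh38, matched for 94.1% of genes, and promoter windows from RefSeq. Precision rests on the reads behind each value; floors cover counting error only.

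Alternatives were RLE scaling, library size alone, no filter, DESeq2 1.42.0, limma-voom 3.58.1, a replicate block, correction for length and GC content, background subtraction by gene span, leaving out each library and, added after seeing the data, background by exon length and pseudogene counts. Members and lists were chosen with earlier results of these data known. Named are the 10 members, from each list at most 4 called genes, those with the lowest p, genes that complete a count, and the 3 genes most like each of NEFM and NEFL. PLEC, which did not pass, and the marker RBFOX3 were added after their values were seen. Some items are not reported here.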

Additional observations from a re-analysis of the deposited data

Results flagged for a closer look

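NES in control replicate 3, at 9.38 CPM, stood apart from the other 3 control libraries, which were between 5.25 and 5.63 CPM. It was the 1 value set apart among 26 groups of 4 libraries examined in this way, and chance sets apart about 1 in 20 groups. Without that library the log2 fold change of NES was 1.02 (edgeR, Benjamini-Hochberg adjusted p = 0.000118).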

How the results depend on the processing

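Of the 10 genes, NEFL, NEFM and NES kept direction and call under all 18 alternatives. KRT8 lost its call with pseudogene counts added (0.30) and without tDR replicate 2 (0.51), which left 1 of the 10 genes higher; leaving out single libraries gave 1 to 3 higher and 2 to 2 lower. INA turned to -0.0004 without tDR replicate 1 and ranged up to 0.2145 with single libraries left out. VIM turned to -0.0074 with no filter, -0.0058 with DESeq2 and -0.019 without control replicate 4, and ranged up to 0.037 with single libraries left out. The summed level of the 10 genes had a log2 ratio of -0.19, -0.11 with library size alone and -0.22 to -0.16 with single libraries left out. With library size alone, which moved the median of all tested genes to 0.10 and gave 3295 higher and 907 lower calls (78.4% higher), 1 other filament gene fell, 6 linker genes rose, 4 binding genes rose and 3 fell. With background subtracted by span, 1 other filament gene and 4 binding genes fell, and over all genes 1075 rose and 1093 fell. With the length and GC correction 5 linker genes fell, and over all 17184 genes 2097 rose and 2206 fell. DESeq2 called 1456 genes higher and 2202 lower, 39.8% higher. Leaving out single libraries gave 1 to 2 other filament genes lower and 4 to 8 binding genes lower. Over all 17240 to 18160 genes tested in these fits, 1640 to 2200 rose and 1511 to 2109 fell. The cause of these shifts was not tested. Same-numbered tDR and control libraries had deviations correlated at -0.047, 0.104, -0.03 and -0.01, and the other pairs at -0.076 to 0.067. Such values cannot tell whether same-numbered libraries were set up together. With the replicate block 2 of the 10 genes were higher and 2 lower, as without it, while 2040 of all genes rose and 1834 fell. Depth limits NEFH and KRT19, at 11 to 37 and 0 to 7 counts.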
